A study of Rattus norvegicus with 6 samples.

Results

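Srf encodes serum response factor, and around it stands a group of genes whose products build and pull on the actin cytoskeleton. The members were the 10 genes Srf, Actb, Actg1, Acta2, Vcl, Tagln, Cnn1, Tpm1, Myh9 and Flna, and each was read from every probe set that the platform annotation gives to that gene alone. With this rule 9 of the 10 genes were measured, by 20 of the 31099 probe sets on the array, out of 14218 genes that had a probe set of their own. Actb, which encodes beta-actin, had 0 such probe sets. Transcripts of Srf were higher after gabazine treatment (GabT) in all 3 replicas, by nearly the same amount each time on its brightest probe set, whereas none of the brightest probe sets of the 8 cytoskeletal genes was higher, or lower, in all 3. None of the 20 probe sets passed the adjusted threshold of the test across the whole array.

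The RNA came from organotypic hippocampal cultures, slices of hippocampus from Wistar rat pups at postnatal day 4 (per the sample labels) that were kept alive by the roller tube method. Untreated cultures made up 3 samples and cultures given 20 µM gabazine for 90 min the other 3, each on its own Affymetrix RAT2302 array. Gabazine blocks the GABA-A receptor, through which neurons receive most of their fast inhibition. In the methods a treated replica is set against the untreated cultures of that replica, so that arrays with the same replica number form a pair, and every log2 ratio given here is gabazine minus control within a pair.

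SRF is a transcription factor that binds a short element called the CArG box, and it works with 2 families of partners. The ternary complex factors, such as Elk1, answer MAP kinase signalling and serve immediate early genes such as Fos and Egr1. The myocardin-related factors are held by unpolymerised actin and released when actin is built into filaments, and they serve muscle and cytoskeletal genes. The Srf gene is itself a known SRF target. In neurons SRF is known for its part in activity-dependent transcription and in the growth and shape of neurites.

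The CArG box has 10 letters, CC followed by 6 letters that are each A or T and then GG, and the pattern reads the same on both strands. It was searched in RefSeq promoter windows of build GRCr8, which run from 250 bases before to 50 bases after a transcription start. The full pattern was found in 548 of 33469 windows (1.64%), and 7 windows (0.0209%) held 2 or more. Windows were given for 8 members, which leaves out Actb and Tagln, and 2 of the 8 held the full pattern. The stretches that hold it are shown because Srf and Actg1 are both named SRF targets and their transcripts are compared further on, and the capitals mark the CArG boxes. The Srf stretch lies at chr9:21923955-21924049 on the plus strand and ends on the last base before the gene as RefSeq places it. The promoter window counts from a start further downstream, 27 bases after the end of this stretch, and positions in Srf are given from that start. The Actg1 stretch lies at chr10:106120992-106121081 on the minus strand, upstream of the gene.
Srf: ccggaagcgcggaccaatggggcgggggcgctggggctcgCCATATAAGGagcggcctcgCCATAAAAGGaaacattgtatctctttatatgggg
Actg1: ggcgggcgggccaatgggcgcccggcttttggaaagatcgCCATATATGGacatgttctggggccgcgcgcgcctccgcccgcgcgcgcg

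The pair of boxes in Srf begins 81 and 61 bases before the start of the window table, and the box in Actg1 begins 90 bases before it. Srf was thus 1 of the 7 windows with 2 full boxes. Egr1, an immediate early gene, was another of the 7, with CCATATTAGG 105 bases and CCATATATGG 83 bases before its start, and the window of its relative Egr2 held 1 box. Another element in the Srf window, CTTTATATGG at 38 bases before the start, differed from the pattern by 1 letter. Acta2, the alpha-actin of smooth muscle, held no full box but 2 elements that differed by 1 letter, CCCTATATGG at 134 bases and CCTTGTTTGG at 84 bases. Tpm1 held 2 of that kind as well, and Flna held 2 that overlap each other after the start. The Flna window, chrX:157182294-157182593 on the minus strand, lies inside the gene, whose upstream end RefSeq places at 157185559. The region upstream of the whole Flna gene was therefore not searched. The Tpm1 window, chr8:76543366-76543665 on the minus strand, also lies almost wholly inside its gene, whose upstream end is at 76543661. Both Tpm1 elements lie inside the gene, and nearly all of the region upstream of it was not searched. The windows of Cnn1, Vcl and Myh9 held neither a full box nor one that is 1 letter off. Since 21.3% of all windows hold a full box or one that is 1 letter off, such a match describes letters only.

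**Figure D1:**
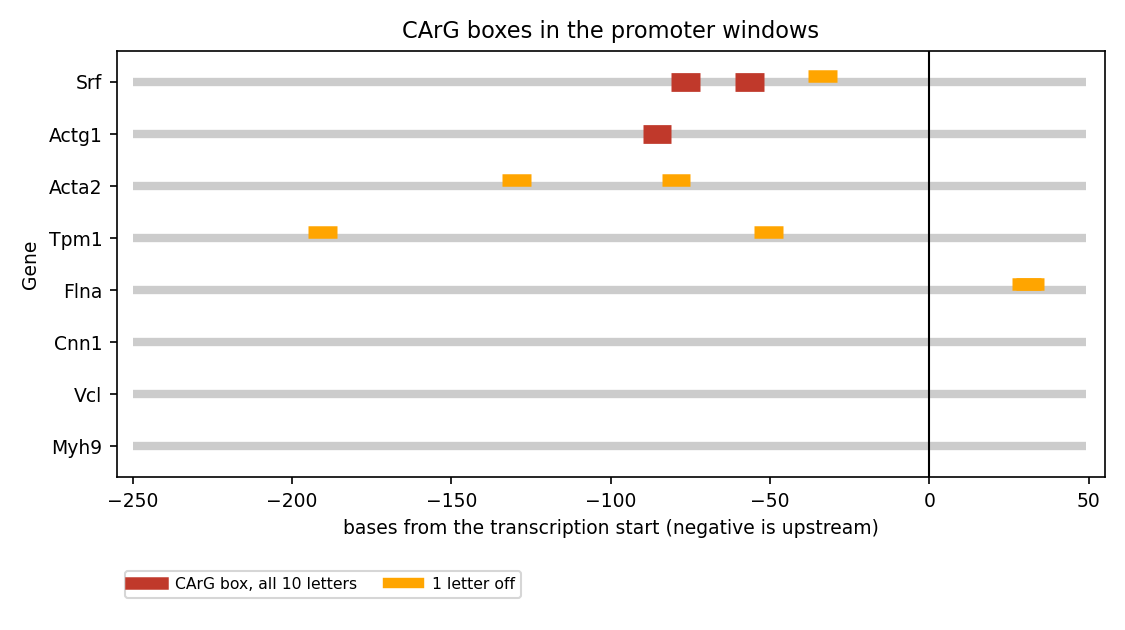
CArG boxes in the promoter windows of 8 member genes, drawn along the distance in bases from the transcription start. Red marks the full 10-letter pattern and orange a stretch that differs from it by 1 letter. Srf is the gene with 2 red marks, Actg1 has 1 and the others have none.

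Before the members, 3 facts of the arrays touch their values. The SD of the log2 ratios over all probe sets was 0.475 in pair 1 and only 0.247 and 0.230 in pairs 2 and 3. The array carries control probe sets along the beta-actin transcript, to which the annotation gives no gene, and their 3' value exceeded the 5' value by 2.02, 2.75 and 2.82 (log2) on control arrays 1, 2 and 3. On the gabazine arrays that difference was 0.32, 2.99 and 2.71, so that gabazine array 1 stood apart from the other 5. The same signal value on both arrays of a pair (a tie) was found in 16.1% (pair 1), 24.1% (pair 2) and 25.7% (pair 3) of all probe sets and in 1, 2 and 1 of the 20 that belong to members. A lower or higher value in these cultures can also mean fewer or more cells of a type, which cannot be told apart here from less or more RNA per cell.

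Srf itself was read by 3 probe sets, and each of them was higher with gabazine than in the control of the same replica in all 3 pairs. On the brightest, 1388842_at, the log2 level was 11.43, 10.07 and 11.06 on the control arrays 1, 2 and 3 and 11.98, 10.69 and 11.64 on the gabazine arrays. The replicas differed more from each other than the treated cultures from their controls: replica 2 was the lowest in both groups, and the groups overlapped when the pairing was set aside. The median log2 level of all probe sets was lower on the replica 2 arrays as well, at 7.90 (control) and 7.89 (gabazine), against 8.63 to 8.71 on the other 4 arrays. Within the pairs, however, the ratio was 0.56, 0.62 and 0.57, a mean of 0.58 ± 0.03 (SD, n = 3 pairs). This is a fold of 1.50, with a 95% confidence interval of 1.39 to 1.61 from limma, an unadjusted p of 0.00042 and an adjusted p of 0.747. Between the 3 pairs the ratio spread less than that of nearly all other probe sets, since its SD lay at percentile 1.87 among the 16345 probe sets without a tie.

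The size of the difference was not extreme for the array. In pairs 1, 2 and 3 the brightest Srf probe set stood at percentile 90.9, 98.0 and 98.9 of all ratios, and 68 probe sets were at least as high as its lowest ratio in every pair. By p it was number 11 of the 31099 probe sets, and number 9 among those with a higher mean after GabT. Without pair 1, the pair with the array that stood apart, the mean ratio of this probe set was 0.60.

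The second Srf probe set, 1374829_at, had log2 levels of 8.70, 7.70 and 8.78 in the controls and 9.20, 8.05 and 8.99 with gabazine. Its ratios of 0.49, 0.35 and 0.21 gave a mean of 0.35 ± 0.14 (SD, n = 3 pairs) with an unadjusted p of 0.0187 and an adjusted p of 0.747 (limma). The dimmest, 1395378_at, read 6.21, 5.79 and 6.46 in the controls and 7.27, 5.94 and 6.47 with gabazine. Here nearly all of the difference came from pair 1, at 1.06, against 0.15 and 0.02 in pairs 2 and 3, and the unadjusted p was 0.234. The 3 probe sets therefore shared their direction but not their size, and the mean of the 3 was 0.70, 0.37 and 0.27 in pairs 1, 2 and 3.

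**Figure D2:**
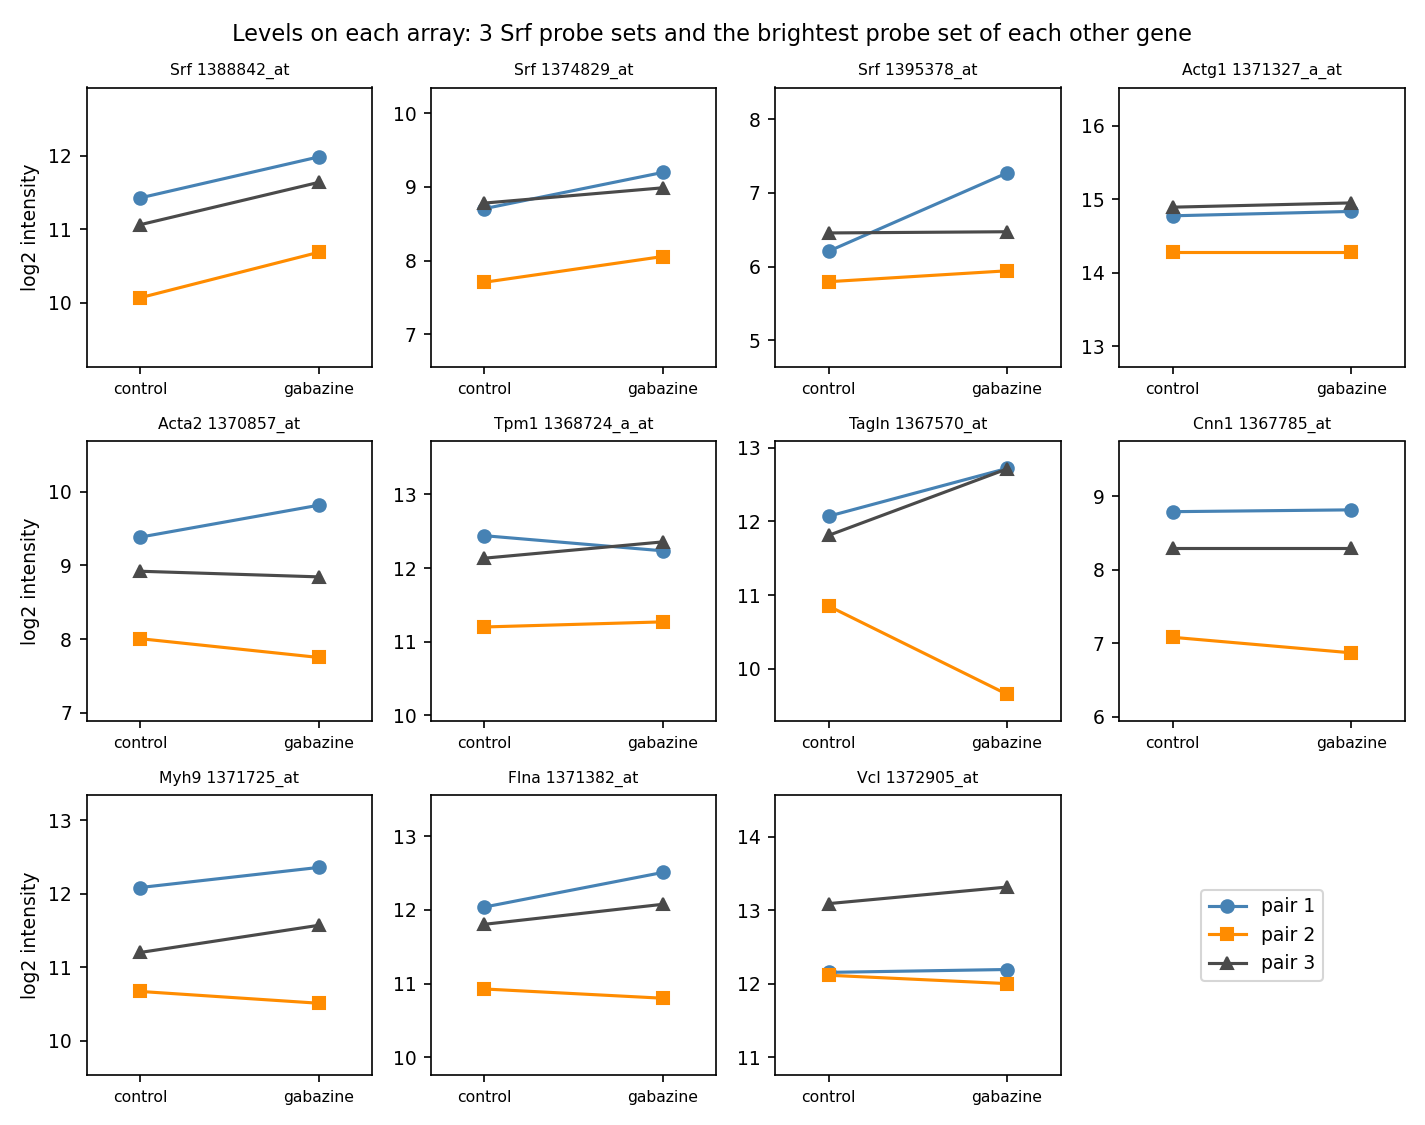
Log2 intensity on each of the 6 arrays for the 3 Srf probe sets and for the brightest probe set of each of the other 8 genes, with a line joining the control and the gabazine array of a replica and axes of equal span. The 3 lines of Srf 1388842_at run upward in parallel, while those of Tagln slope down in pair 2 and up in pairs 1 and 3.

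Among all 20 member probe sets, 5 were higher in all 3 pairs, namely the 3 of Srf and 1 each of Tpm1 and Vcl, and 1 of Tpm1 was lower in all 3. Over the whole array 6.92% of the probe sets were higher in every pair and 9.49% lower. A tied probe set can be neither. Ties in a pair touched 14754 of the 31099 probe sets but only 4 of the 20 members. Both shares are therefore lower than they would be among the 16345 probe sets without a tie. At an unadjusted p under 0.05 there were 2 member probe sets that were higher, both of Srf, and 0 that were lower, where the array as a whole had 1.84% higher and 2.68% lower. At an adjusted p under 0.05 the members had 0, as had the array (0%), and limma with no pairing called 0 members as well. The median ratio of the 20 was 0.06, against 0.00 for all probe sets. With Srf set aside, 17 probe sets of 8 genes remained, of which 2 were higher and 1 was lower in every pair and 0 had an unadjusted p under 0.05.

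**Figure D3:**
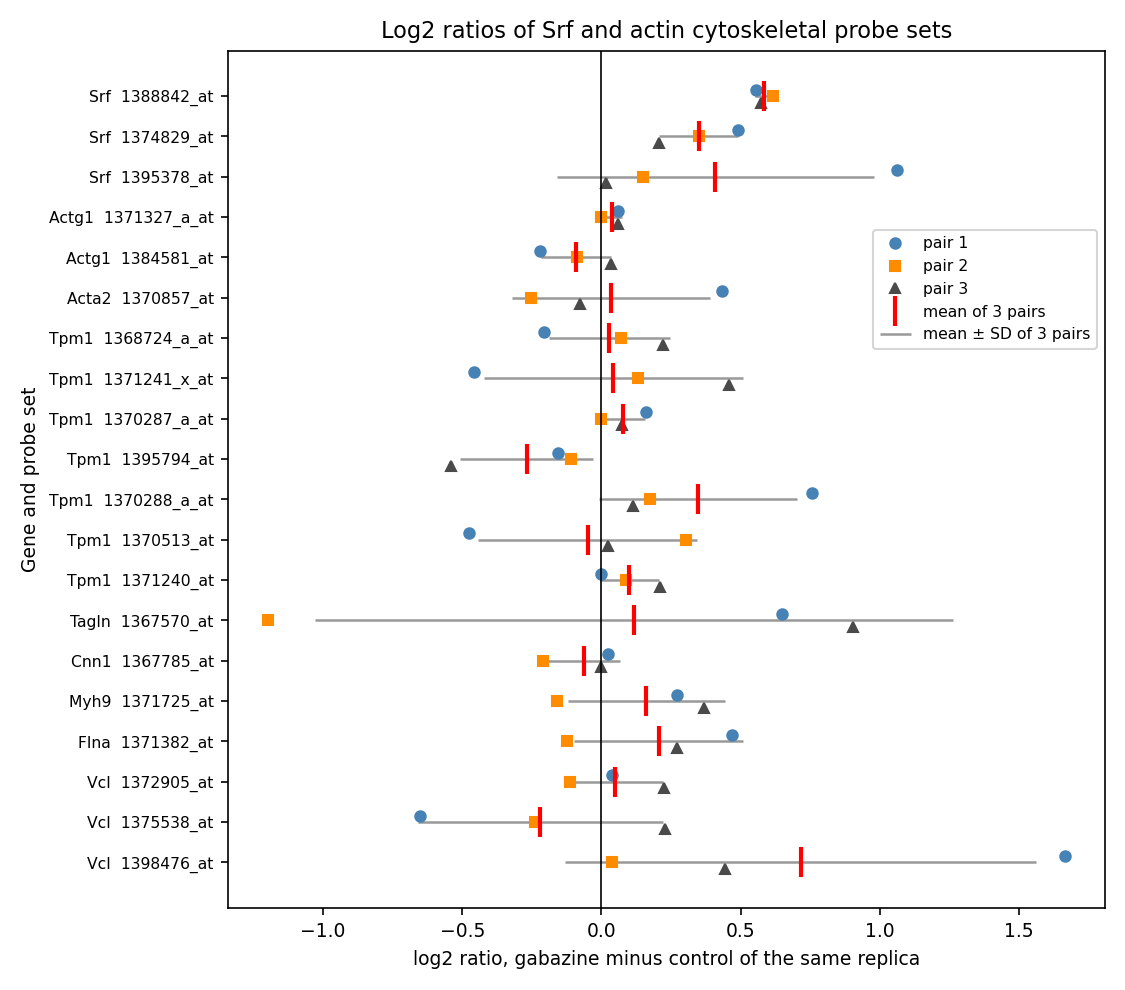
Log2 ratio of gabazine minus control for the 20 member probe sets, with a point for each pair, a red tick for the mean and a grey bar for the SD of 3 pairs. The points of Srf 1388842_at lie together between 0.56 and 0.62, those of Tagln spread from -1.20 to 0.90, and the probe sets of Tpm1 lie on both sides of 0.

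The actins came first among the targets. Actg1 encodes the cytoplasmic gamma-actin that is found in nearly every cell, and its main probe set, 1371327_a_at, was among the brightest of the array. It read 14.77, 14.29 and 14.89 in the controls and 14.83, 14.29 and 14.95 with gabazine, with the value of pair 2 tied. The mean log2 ratio was 0.04 ± 0.03 (SD, n = 3 pairs), and the 95% confidence interval of the fold ran from 0.955 to 1.11, which leaves out the 1.50 of Srf. Thus of the 2 members with a full CArG box in the promoter window, on their brightest probe sets, one was higher in every pair and the other stayed within a narrow interval around no difference. This Actg1 probe set lies near the highest value on the arrays, 15.41, and how far so bright a probe set can still rise was not tested. Both probe sets that the annotation shares between Actg1 and other actins, given below, were higher in every pair. A dimmer probe set of Actg1, 1384581_at, had ratios of -0.22, -0.09 and 0.03.

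For Actb no value is given under its own name. A pair of probe sets that the annotation assigns jointly to Actg1l1, Actg1 and Actb had ratios of 0.32, 0.00 and 0.07 (1398835_at) and of 0.66, 0.16 and 0.38 (1398836_s_at, unadjusted p = 0.0490 with limma). Both were higher in all 3 pairs, and which of these actins they read is not known. The beta-actin control probe sets had ratios of 0.47, 0.10 and 0.23 at the 3' end and of 2.17, -0.14 and 0.33 at the 5' end. In pair 1 the same transcript thus gave ratios that differed by more than 1.5 on the log2 scale along its length, and in pairs 2 and 3 by much less. The part of this in the ratios of the member probe sets was not tested, but the largest ratios of Srf, Tpm1 and Vcl all stood in pair 1, at 1.06, 0.76 and 1.66, on probe sets dimmer than the brightest of each gene. The 3' control probe set of GAPDH, a glycolytic enzyme, had ratios of 0.03, 0.02 and 0.14, and its 5' probe set had 0.53, 0.06 and 0.06, so that in pair 1 the 5' end of this transcript too had a higher ratio than the 3' end.

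Acta2, the smooth muscle actin that also marks myofibroblasts, had 1 probe set of its own, 1370857_at. The log2 level was 9.38, 8.00 and 8.92 in the controls and 9.82, 7.75 and 8.84 with gabazine, so that pair 1 was higher by 0.43 and pairs 2 and 3 were lower, at -0.25 and -0.08. The mean of 0.03 was far below the spread between the pairs (SD 0.36, unadjusted p = 0.856 by limma). Another 5 probe sets, shared in the annotation with the cardiac actin Actc1, had mean ratios from -0.05 to 0.27.

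Proteins that bind and steady the filament gave no common direction either. Tpm1 encodes tropomyosin, which lies along actin filaments and is spliced into many isoforms, and its 7 probe sets had mean ratios from -0.27 to 0.35 with a mean of 0.04. Opposite signs appeared within the gene: 1370288_a_at was higher in every pair, by 0.76, 0.17 and 0.11, and 1395794_at was lower in every pair, at -0.16, -0.11 and -0.54. Neither passed an unadjusted p of 0.05 (0.138 and 0.107 with limma), and the annotation does not say which isoforms the probe sets read. The brightest, 1368724_a_at, had ratios of -0.21, 0.07 and 0.22. The other four, 1371241_x_at, 1370287_a_at, 1370513_at and 1371240_at, had mean ratios of 0.04, 0.08, -0.05 and 0.10.

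Tagln, which encodes transgelin (SM22), an actin-binding protein of smooth muscle and a classical SRF target, varied most between replicas. It read 12.07, 10.85 and 11.81 in the controls and 12.72, 9.65 and 12.71 with gabazine. Pairs 1 and 3 were higher, by 0.65 and 0.90, whereas in pair 2 the treated cultures were at -1.20, the lowest ratio of any member in any pair. The mean was 0.12 with an SD of 1.15 and a 95% confidence interval of the fold from 0.319 to 3.69, so that neither a rise nor a fall of the size seen in Srf is left out. Without pair 2 the mean ratio was 0.78, and without pair 3 it was -0.27.

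Cnn1, the calponin of smooth muscle, stayed close to its controls, with ratios of 0.02, -0.21 and a tie in pair 3. These 3 genes, Acta2, Tagln and Cnn1, are also markers of vascular smooth muscle, a cell type that slices of brain contain. The 8 other markers fixed for smooth muscle and pericytes (Myh11, Des, Pdgfrb, Rgs5, Cspg4, Notch3, Kcnj8 and Abcc9) were all measured, with mean log2 levels from 6.05 to 9.37, and the log2 ratio of their summed level was -0.16, -0.04 and -0.11 in pairs 1, 2 and 3. All 8 of these markers were tied in at least 1 pair, which limits what their sum can show. For 5 markers of fibroblasts and meninges the ratio of the summed level was 0.38, 0.41 and -0.49. That sum followed the collagens Col1a1, Col1a2 and Col3a1, each higher in pairs 1 and 2 and lower in pair 3. Dcn had ratios of 0.16, -1.24 and -0.79, and Lum had -0.30, -0.29 and -0.31. Neither sum took the course of Tagln over the pairs, but Dcn came near its ratio in pair 2. Whether the content of these cells followed Tagln was not tested. For 3 markers of choroid plexus the ratio of the summed level was 2.76 in pair 1 and 0.13 and 0.10 in the others. Ttr (transthyretin) carried it, with a ratio of 4.59 in pair 1, where Folr1 had 0.59 and Kl was tied. Its part in the pair 1 values of the members was not tested.

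The motor and the anchors completed the group. Myh9 encodes the heavy chain of non-muscle myosin IIA, which pulls on actin filaments, and 1371725_at read 12.08, 10.67 and 11.20 in the controls and 12.36, 10.51 and 11.57 with gabazine, a ratio of 0.27, -0.16 and 0.37. A dimmer probe set that lists Myh9 under 2 identifiers and is not counted among the 20 was at 1.48 in pair 1 and at 0.00 in pairs 2 and 3. Flna, the filamin that crosslinks filaments and ties them to the membrane, had ratios of 0.47, -0.13 and 0.27 from levels of 12.04, 10.93 and 11.81 in the controls. Both genes were thus higher in pairs 1 and 3 and lower in pair 2, as was Tagln, and their unadjusted p values were 0.329 and 0.260 (limma).

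Vcl encodes vinculin, which links integrin and cadherin adhesions to actin, and its 3 probe sets disagreed. The brightest, 1372905_at, had ratios of 0.04, -0.11 and 0.22, and 1375538_at had -0.65, -0.24 and 0.23. The dimmest, 1398476_at, read 8.45, 7.63 and 8.83 in the controls and 10.12, 7.67 and 9.28 with gabazine. Its mean ratio of 0.72 was the highest of all 20 member probe sets, above that of Srf, but it came to 0.24 without pair 1 and its unadjusted p was 0.178 (limma). Size alone therefore did not separate Srf from its group. What set Srf 1388842_at apart from that probe set was the spread between pairs, an SD of 0.03 against 0.85, although Actg1 1371327_a_at had as small a spread as Srf around a mean near 0.

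The course of Tagln, Myh9 and Flna over the pairs was compared with a wider list of 36 measured cytoskeletal SRF targets, each read by its brightest probe set. With the 8 member genes other than Srf this makes 44 genes, and 28 of them were higher in pair 1 and 31 in pair 3, but only 8 in pair 2, where 31 were lower. As a share, 63.6%, 18.2% and 70.5% of these genes were higher in pairs 1, 2 and 3, against 33.9%, 34.3% and 48.1% of all 14218 genes. The medians were 0.05, -0.10 and 0.17. A tie counts as not higher here, and 10 of the 44 genes but 6074 of all 14218 genes were tied in a pair. In pair 2 the lower ratios included Flnc (muscle filamin) at -0.96, Actn1 (alpha-actinin) at -0.52, Tpm4 at -0.52 and Itga5 (integrin alpha5) at -0.45, of which Actn1, Tpm4 and Itga5 were higher in pairs 1 and 3. These genes were picked after their values were seen. The 3 Srf probe sets were higher in pair 2 as well, by 0.62, 0.35 and 0.15, and pair 2 held the highest ratio of 1388842_at but not of the other two. The difference between the pairs in the cytoskeletal genes has no replicate of its own and was not tested.

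**Figure D4:**
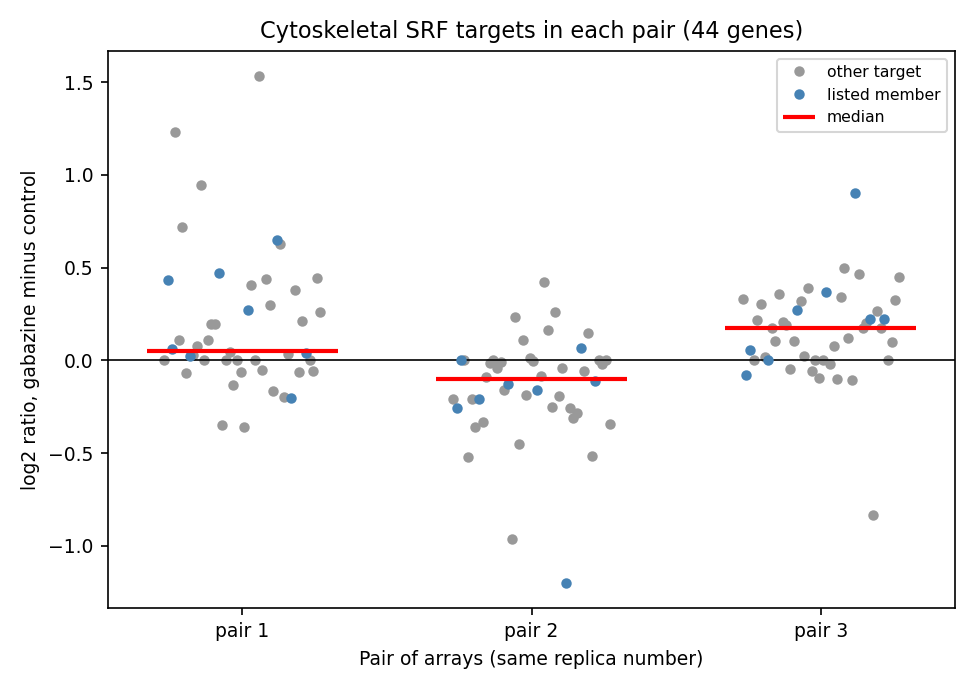
Log2 ratio of gabazine minus control in each pair for 44 cytoskeletal SRF targets on their brightest probe set, with the 8 member genes in blue, 36 others in grey and the median as a red bar. Most points lie above 0 in pairs 1 and 3 and below 0 in pair 2.

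Of the 36 other targets, 2 were higher and 1 was lower in all 3 pairs, where 7.79% and 10.8% of all genes were, and 1 was higher and 0 were lower at an unadjusted p under 0.05, where 2.37% and 2.84% of all genes were. The one that was higher was Pfn1, profilin, which loads actin monomers onto growing filaments. Its level was 12.91, 10.63 and 12.22 in the controls and 13.34, 10.89 and 12.73 with gabazine, a mean ratio of 0.40 ± 0.12 (SD, n = 3 pairs; unadjusted p = 0.00961, adjusted p = 0.747 by limma). The highest mean ratio of the list was that of Pdlim5, at 0.53, of which 1.53 stood in pair 1 and -0.10 in pair 3. The lowest was that of Flnc at -0.33. The median of the list was 0.04. A tied gene cannot be higher or lower in every pair. Ties touched 8 of the 36 targets but 6074 of the 14218 genes, which lowers the shares of all genes more.

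The partners of SRF were read in the same way. Of the 9 measured cofactors, 3 were higher and 0 were lower in every pair (7.79% and 10.8% of all genes), and 2 were higher at an unadjusted p under 0.05 (2.37% of all genes). Abra, also called STARS, an actin-binding protein that promotes the release of the myocardin-related factors, had a level of 6.09, 5.86 and 6.87 in the controls and 7.06, 6.73 and 7.55 with gabazine. With ratios of 0.97, 0.87 and 0.68 and a mean of 0.84 ± 0.15 (SD, n = 3 pairs; unadjusted p = 0.00187 with limma) it exceeded Srf in each pair, on a dim probe set. Fhl2, a LIM protein that binds SRF, was higher by 0.14, 0.36 and 0.25 (unadjusted p = 0.0259 with limma). Mrtfa, a myocardin-related factor, had a mean of 0.09, and the lowest cofactor was Elk4, a ternary complex factor, with ratios of -0.21, 0.19 and -0.41. The median of the cofactors was 0.01, near that of all genes. Of the 9 cofactors 2 were tied in a pair, so that ties again lowered the shares of all genes more.

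The genes listed as immediate early SRF targets had far larger ratios than the cytoskeletal ones. The literature survey of the paper names no SRF regulation for Dusp1, Egr4 and Klf4, which are on this list. Fosb, Junb, Ier2, Mcl1, Klf2, Ccn2, Tnfaip3 and Zfp36, also on this list, are not among the genes of that survey. By chromatin immunoprecipitation the paper reports an SRF signal at Arc, Fos, Ccn1 (there Cyr61), Egr1, Egr2 and Nr4a1. Of 18 measured genes 14 were higher in every pair and at an unadjusted p under 0.05, 0 were lower, and the median was 1.42, with 1.29, 1.15 and 1.60 in pairs 1, 2 and 3. The list was put together with the response of these cultures known, so this count is a description. In pair 2, where most of the cytoskeletal targets were lower, 15 of the 18 were higher. Fosb, an AP-1 subunit, had the highest mean ratio, at 3.15, and Arc, a synaptic protein made near active synapses, had 2.78. Egr2 and Egr1, zinc finger factors with CArG boxes in their windows, had 2.29 and 1.32, Klf2 had 1.44 and Fos had 1.00. Among the windows given for this list, the only other full box was that of Zfp36, with a mean ratio of 0.69. On their brightest probe sets Klf2 (SD 0.14) and Fos (SD 0.13) thus had higher ratios than Srf in every pair, and ratios that were also close to each other over the pairs. Dimmer probe sets of Klf2 had mean ratios from 0.02 to 1.24, and a dimmer one of Fos had 0.08.

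Of the same list, 4 genes were not higher in every pair, nor lower in every pair. Ccn2, a matrix protein and a target of the myocardin-related factors, had ratios of 0.13, -0.01 and -0.24, the lowest mean of the list at -0.04, while its relative Ccn1 was higher by 1.17, 0.87 and 2.54. The others were Tnfaip3, Mcl1 and Egr3, and the annotated probe set of Egr3 had a tie in pair 2. None of the 14 passed the adjusted threshold in the paired fit, which has 2 residual degrees of freedom.

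**Figure D5:**
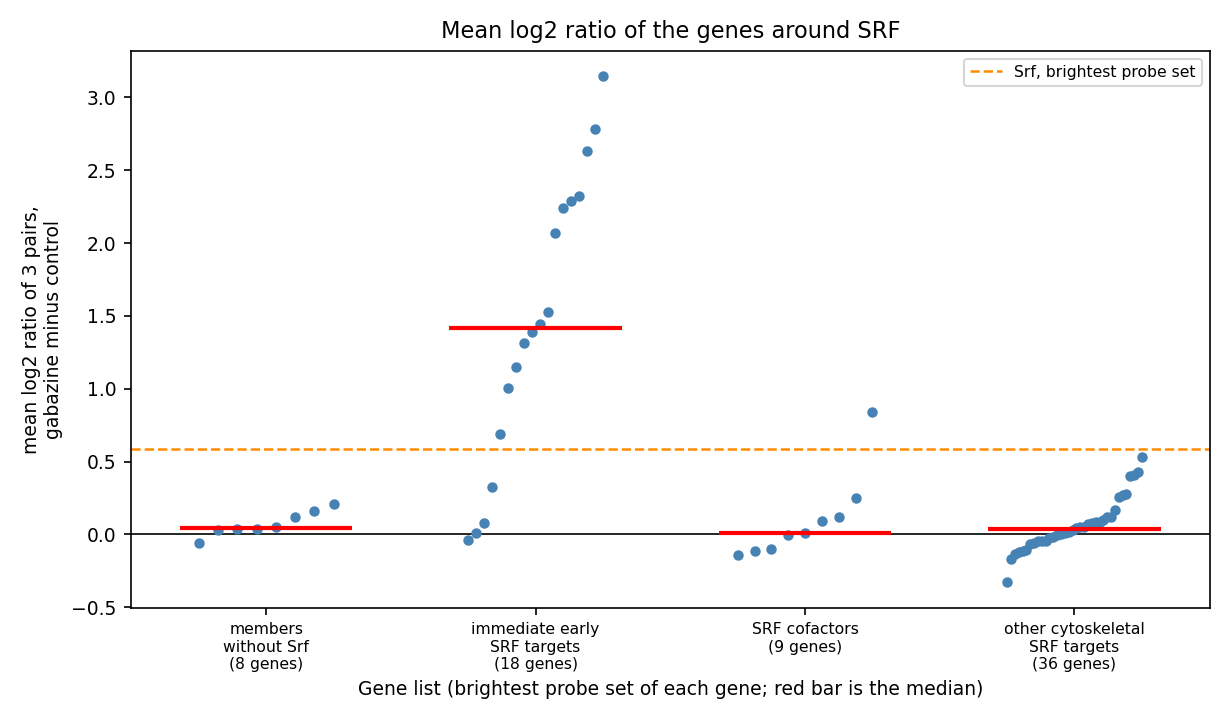
Mean log2 ratio over 3 pairs of each measured gene, on its brightest probe set, for the 8 members without Srf and 3 lists of genes around SRF, with the median as a red bar and the mean ratio of Srf, 0.58, as a dashed line. The immediate early targets have their median at 1.42, and the medians of the other lists lie between 0.01 and 0.04.

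The genes whose 3 ratios were most like those of the brightest Srf probe set, by Euclidean distance over the 3 pairs among the 8143 other genes whose brightest probe set had no tie, were Tp53rkb, Ddit4, Zdbf2, Inmt and Rps13. Their mean ratios were 0.57, 0.63, 0.53, 0.72 and 0.49, and none of them is a member or stands on a list used here. With only 3 ratios per gene such likeness is a description.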

How the data were processed

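Per the labels and the methods, the authors ran RMA on the scans of 6 RAT2302 arrays and deposited log2 intensities (RMA version not given in the sources used here). No detection measure comes with them, so how far a dim probe set lies above background is unknown, and the number of arrays limits the precision. Groups and replica numbers came from the sample labels, 0 columns of values were left out and 0 arrays were dropped.

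In the platform annotation 20832 probe sets carry 1 symbol, 436 several and 9831 none. The log2 ratios were tested two-sided in limma (version 3.58.1, R version 4.3.3), blocked on the pair, with eBayes and the Benjamini-Hochberg adjustment over 31099 probe sets at a threshold of 0.05. The pairing follows the methods, and paired arrays deviated together from their group means (correlations of 0.794, 0.664 and 0.853). Whether the arrays were normalized together or pair by pair is not stated. The correlations therefore cannot show that the cultures themselves were alike within a pair. The p-values rest on the spread between these 3 biological replicas, which eBayes moderates toward the spread over all probe sets, tied ones included. With tied probe sets left out, the unadjusted p of Srf 1388842_at was 0.00257 by limma, against 0.00042 with them. The fit was tested on simulated data. The members, the lists and the rules were chosen with earlier results of these data known. Named were all member probe sets, the highest and lowest gene of each list of cofactors or targets, genes of such a list that were higher in every pair at an unadjusted p under 0.05 (of the 14 immediate early genes only some), and the 5 genes most like Srf. A further list of genes was fitted and is not reported here. Alternatives dropped the pairing, 1 pair, dim probe sets or tied ones, rescaled the arrays in 3 ways, changed the eBayes prior, or averaged a gene's probe sets.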

Additional observations from a re-analysis of the deposited data

How the results depend on the processing

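Without the pairing as a block, limma called 14 probe sets higher and 0 lower over the array (0 with it), 5 genes of the lists (0 with it) and 0 members, and 0 member probe sets were higher at an unadjusted p under 0.05 (2 with it). For Srf 1388842_at the unadjusted p by limma was 0.00042 in the main fit, the lowest of all settings. Under the alternatives it ran from 0.00082 (cyclic loess scaling) to 0.278 (no pairing). Leaving out 1 pair gave 1 to 3 member probe sets higher at that p, 5 to 11 higher in both remaining pairs and 1 to 3 lower in both. With arrays centred on their medians 6 member probe sets were higher and 1 was lower in every pair. The mean of all probe sets gave 0.45 for Srf and -0.03 for Actg1. Of 194 member ratios under alternatives 185 kept their direction and side of the threshold, and 9 reversed, each with a pair left out. They belong to 7 probe sets, whose ratios ran from -0.17 (without pair 1) to 0.18 for Acta2, from -0.27 (without pair 3) to 0.78 for Tagln, which was at -0.15 without pair 1, and from -0.11 to 0.012 (without pair 2) for Cnn1. For Tpm1 they ran from -0.068 (without pair 3) to 0.15 on 1368724_a_at, from -0.16 (without pair 3) to 0.29 on 1371241_x_at, which was at -0.000603 without pair 2, and from -0.23 to 0.16 (without pair 1) on 1370513_at. For Vcl 1372905_at they ran from -0.037 (without pair 3) to 0.13. The cause was not tested. Another scaling moved the median of all ratios by at most 0.0146.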
